A study of Mus musculus with 4 samples.

Results

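The repeat count table of this mouse pre-implantation series has 5 rows for genes of structural RNAs, out of 47 rows in all. These are rRNA (ribosomal RNA), tRNA (transfer RNA), snRNA (small nuclear RNA), scRNA (small cytoplasmic RNA) and srpRNA (the RNA of the signal recognition particle). They were chosen by row name, whatever their values, and no row was lost to a filter. Each row adds up all copies of its kind in the genome, so its counts are not those of a single gene, and the rows differ in how many copies they hold and how long these are.

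RNA 5′ ends were sequenced by nanoCAGE, which selects capped RNA ends from small amounts of total RNA. All material came from F1 crosses between C57BL/6J and CBA/H mice: fully grown oocytes, 2-cell embryos at 48 h, 8-cell embryos at 68 h and blastocysts at 92 h. Each stage is 1 sample read in 2 runs (2-cell) or 3 runs (the other stages), and how many oocytes or embryos were pooled is not given in the sources used here. Whether runs came from separate pools is not stated. All runs of a stage were taken as repeats of the same sample, and no p-value was computed.

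Ribosomes are built on rRNA, and tRNAs carry amino acids to them. The snRNAs form the core of the spliceosome, which removes introns. The scRNA row of such annotations usually holds Y RNAs and other short cytoplasmic RNAs made by RNA polymerase III, and srpRNA (7SL RNA) is the scaffold of the particle that brings ribosomes to the endoplasmic reticulum. Most of these RNAs lack the cap of messenger RNA, while several snRNAs carry a modified cap. The fully grown oocyte is rich in stored RNA and is transcriptionally quiet, and the embryo takes up transcription of its own genes after fertilisation. Which part of the counts stems from capped RNA was not tested.

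Sequences of 1 gene each are given for the snRNA and scRNA rows, the 2 rows with the clearest differences between stages. They are those of the GENCODE M21 transcripts on GRCm38, with capitals marking the first 25 bases, the length of a placed read. The read files use another build, mm9, and name no gene, so it was not determined whether these genes gave any count. Rnu1b1, a gene of the U1 snRNA that recognises the start of introns, lies at chr3:96359953-96360117 on the minus strand. Rny1, a Y RNA gene, lies at chr6:47788069-47788180 on the minus strand.
Rnu1b1 (snRNA): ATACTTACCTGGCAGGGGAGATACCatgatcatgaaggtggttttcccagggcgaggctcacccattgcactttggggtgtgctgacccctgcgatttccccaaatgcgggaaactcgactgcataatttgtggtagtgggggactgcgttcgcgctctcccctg
Rny1 (scRNA): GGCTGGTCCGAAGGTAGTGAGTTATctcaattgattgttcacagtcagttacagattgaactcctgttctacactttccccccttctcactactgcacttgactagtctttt

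The unit is the share, a row's counts in percent of the run's total over the 47 rows. Run totals ranged from 36922 to 1919263 counts. As a second scale, counts are given per 100 counts of the 34 transposon rows (LINE, SINE, LTR and DNA elements), which took 37.9% to 95.1% of a run. A row was said to rise or fall when the means of the runs differed at least 2-fold between 2 stages and no run of one stage lay within the runs of the other. Both scales are relative: more RNA of one kind and less of the rest cannot be told apart. Intervals of shares are exact (Clopper-Pearson) 95% intervals, which cover counting error only, since amplified reads are not independent molecules. The labels' stages could not be checked against marker genes because the files name none.

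Among the structural RNA rows the clearest differences were in 2 small ones. The scRNA row was highest in the oocyte, fell 15.3-fold to the 2-cell embryo and was 3.90-fold lower in the blastocyst than in the oocyte. The snRNA row was highest in the blastocyst, 6.93-fold above the oocyte and 3.26-fold above the 8-cell embryo. Of all rows, 27.7% rose from oocyte to blastocyst and 8.51% from 8-cell to blastocyst, so the first rise is not particular to snRNA. The rRNA row took nearly all structural RNA counts and ranged more widely between runs of 1 stage than between stage means. The tRNA and srpRNA rows passed the rule in no pair of stages when all runs were weighted equally.

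The calls among the structural RNA rows are set beside those of the whole table here. From oocyte to 2-cell none of 5 rose and 1 fell (scRNA), while 31.9% of all rows rose and 8.51% fell. From 2-cell to 8-cell none of 5 was called, against backgrounds of 2.13% for rises and 8.51% for falls. From 8-cell to blastocyst 1 of 5 rose (snRNA) and none fell, against 8.51% and 4.26% of all rows. Over the whole span from oocyte to blastocyst 1 rose (snRNA) and 1 fell (scRNA), where 27.7% of all rows rose and 6.38% fell. From oocyte to 8-cell 1 fell (scRNA) and none rose, against 6.38% and 17.0%, and from 2-cell to blastocyst 2 rose (snRNA and scRNA) and none fell, against 10.6% and 2.13%. These comparisons share runs, so their counts are not independent of each other.

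The oocyte columns of the table and the oocyte read files do not match by name as the other runs do, which bears on what the run names mean. The table total per line of the read file was 2.07, 1.40 and 0.797 in oocyte runs 1.1, 1.2 and 2, against 0.947 to 1.16 in the 8 other runs. The rRNA count per read line in the densest 10 kb of the genome (chr17:39980001-39990000 in mm9) was 9.31, 1.43 and 0.481 in the oocyte runs, and the other runs ran from 1.40 to 2.22. The read file named 2 thus holds 80681 lines in that window, more than the 38791 rRNA counts of the column named 2. With the names 1.1 and 2 crossed between table and read files, the total per line was 1.19 for column 1.1 and 1.39 for column 2, and the rRNA count per window line 3.14 and 1.43. The overlap of 2 read files was taken as the smaller of their 2 shares of lines at each start, summed over starts. It was 70.1% for files 1.1 and 1.2, 10.2% for 1.1 and 2, and 11.7% for 1.2 and 2. Starts with many lines weigh most in it. Among the table columns 1.2 and 2 were the closest, with r = 0.986 of log2 shares over 47 rows, against 0.928 for 1.1 and 1.2 and 0.943 for 1.1 and 2. The pair that shares the number 1 is thus the closest among the read files but not among the table columns. With names crossed, both totals per line and the 3.14 still lay outside the ranges of the runs of other stages. No source used here says whether any name is wrong, the reason for the mismatch was not tested, and the names of the table columns are kept. Stage means and their overlap would stay the same if only names of oocyte runs were crossed. Whether they would hold for another reason of the mismatch was not tested.

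The rRNA row held 44.9%, 14.0% and 10.3% of counts in oocyte runs 1.1, 1.2 and 2, that is 252963, 268435 and 38791 counts. It held 4.53% and 12.8% in 2-cell runs 1 and 2, and 0.807%, 3.81% and 26.5% in 8-cell runs 1.1, 1.2 and 2. Blastocyst runs 1.1, 1.2 and 2 had 8.52%, 18.4% and 10.01%. Every pair of stages overlapped, and within the 8-cell stage alone the highest run was 32.9 times the lowest. The stage means were 23.1% in the oocyte, 12.3% in the blastocyst, 10.4% in the 8-cell and 8.65% in the 2-cell embryo, and no neighbours in this order were separated. The blastocyst mean was 0.533 times the oocyte mean, and 1.01 times when oocyte run 1.1 was left out. With 1 run left out the rule was passed by falls from oocyte to 2-cell without oocyte run 2 (ratio 0.294) or 2-cell run 2 (0.196). It was also passed by a fall from oocyte to blastocyst without blastocyst run 1.2 (0.402). Without 8-cell run 2 it was passed by a fall from 2-cell to 8-cell (0.267) and a rise from 8-cell to blastocyst (5.33). Per 100 transposon counts the oocyte runs had 118, 19.7 and 14.1 rRNA counts, so that the column named 1.1 held more rRNA than transposon counts. The ratio was 0.849, 4.18 and 43.7 in the 8-cell runs, 4.94 and 15.5 at the 2-cell stage and 10.6, 26.2 and 11.6 in the blastocyst. The 8-cell runs alone thus spanned a wider range than over the stage means, which ran from 10.2 in the 2-cell to 50.7 in the oocyte.

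**Figure D1:**
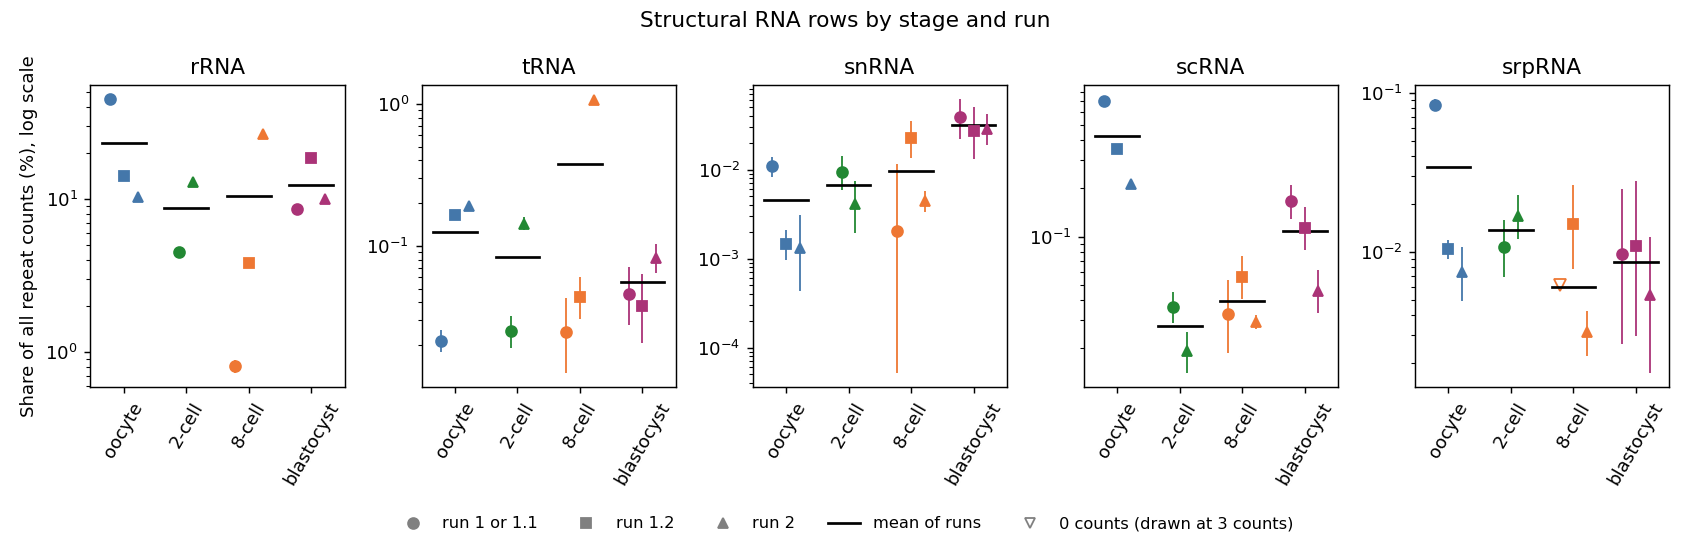
Share of all repeat counts (percent, log scale) of the 5 structural RNA rows in each of the 11 runs, by stage. Points are runs with exact 95% intervals of counting error, bars are means of runs, and the open triangle is a run with 0 counts drawn at 3 counts. The scRNA runs of the oocyte lie above those of all other stages and the snRNA runs of the blastocyst above those of all other stages, while rRNA, tRNA and srpRNA runs overlap.

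Some properties of the runs moved with the rRNA share at the 2-cell and 8-cell stages, and in part in the blastocyst. The densest 10 kb of the genome took 0.418% to 17.7% of read lines, with 8-cell run 1.1 lowest and 8-cell run 2 highest, the same runs that were lowest and highest for rRNA within that stage. It took 2.19% and 6.80% in 2-cell runs 1 and 2, and 4.59%, 14.5% and 4.43% in blastocyst runs 1.1, 1.2 and 2. Blastocyst run 1.2 was highest for both, while runs 1.1 and 2 were in the reverse order of their rRNA shares. In oocyte runs 1.1, 1.2 and 2, by name, it took 9.98%, 13.6% and 17.0%, the reverse of their order in rRNA share. The median score of the read placements, a deposited number whose scale is not stated, was 16, 28 and 54 in 8-cell runs 1.1, 1.2 and 2 and 24 and 43 in the 2-cell runs, in the same order as their rRNA shares. In the blastocyst runs it was 16, 32 and 15: run 1.2 was highest for both, but runs 1.1 and 2 were again in reverse order. In oocyte runs 1.1, 1.2 and 2 it was 50, 53 and 35, and there the order differed from that of the rRNA shares. The part of these properties in the rRNA share was not tested.

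The tRNA row held 121, 3179 and 721 counts in oocyte runs 1.1, 1.2 and 2, or 0.0215%, 0.166% and 0.191%. The 2-cell runs had 0.0250% and 0.143%, and the 8-cell runs 0.0246%, 0.0437% and 1.07%. Blastocyst runs had 0.0458%, 0.0379% and 0.0819%. A single run, 8-cell run 2 with 13406 counts, set the 8-cell mean of 0.380%, and all stages overlapped. Without that run the ratio of 8-cell to 2-cell means turned from 4.52 to 0.407, and that of blastocyst to 8-cell from 0.145 to 1.61. Without oocyte run 1.1 the row passed the rule, with ratios of 0.471 from oocyte to 2-cell and 0.310 from oocyte to blastocyst. With runs 1.1 and 1.2 averaged first it also passed from oocyte to blastocyst (0.435), but not when oocyte columns 1.1 and 2 were crossed (0.620). The order of the means was 8-cell, oocyte (0.126%), 2-cell (0.0840%) and blastocyst (0.0552%), with no neighbours separated. No label names a sequencing run, so runs were taken as 1 sequencing run where a fragment of their read names was the same. In such a set, 8-cell run 2 was 7.49 times 2-cell run 2 in tRNA share and 2.08 times in rRNA share.

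Mitochondrial read lines were set beside the tRNA row, and both were highest in 8-cell run 2. The mitochondrial genome carries its own rRNA and tRNA genes, and 41051 read lines were placed on it, nearly all (99.995%) in 3 short stretches, positions 1901 to 2200, 2601 to 2800 and 3701 to 3900 of chrM in mm9. In the stretches at 2601 to 2800 and 3701 to 3900 there were 13035 lines in 8-cell run 2, beside 13406 tRNA counts, and 322 lines in 2-cell run 2, beside 351. In the 8-cell runs 1.1 and 1.2 there were 3 and 23 lines beside 12 and 35 tRNA counts. The other runs were less alike: 2-cell run 1 had 2 lines beside 58 counts and blastocyst runs 1.1, 1.2 and 2 had 1, 9 and 32 lines beside 19, 14 and 77. Oocyte runs 1.1, 1.2 and 2 had 422, 1512 and 3 lines beside 121, 3179 and 721 counts, and with names crossed as above column 2 had 1.71 counts per line and column 1.1 had 40.3. The stretch at 1901 to 2200, with the most lines (25685), was left out of these numbers. It held 8976 lines in 8-cell run 2 and 12060 in oocyte run 1.2, beside 3179 tRNA counts there. Its share of read lines was 1.03% in oocyte run 1.1 and 0.776% in 8-cell run 2. With it, 8-cell run 2 had 22011 chrM lines, so the closeness to 13406 depends on the stretches taken. Of all chrM lines, 98.97% lay on the minus strand. The stretches were chosen after their values were seen, and no annotation of this build was used. Whether the same reads make up the tRNA row was not tested.

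**Figure D2:**
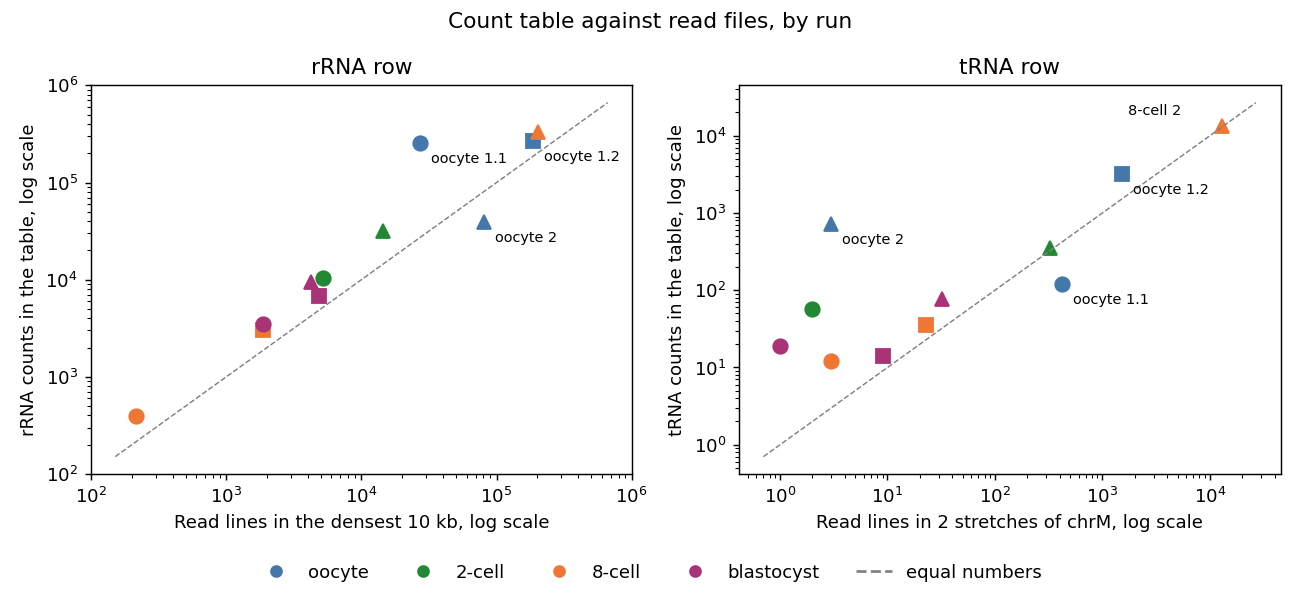
Left, rRNA counts of the table against read lines in the densest 10 kb, and right, tRNA counts against read lines in 2 stretches of chrM, for each run (both axes logarithmic, dashed line at equal numbers; circles are run 1 or 1.1, squares 1.2, triangles 2). Oocyte runs 1.1 and 2 lie off the band of the other runs on the left (9.31 and 0.481 counts per line against 1.40 to 2.22), and 8-cell run 2 is the highest point on the right.

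The snRNA row was small everywhere, with 1 to 61 counts per run. Oocyte runs 1.1, 1.2 and 2 had 0.0108%, 0.00146% and 0.00132%, 2-cell runs 0.00948% and 0.00407%, and 8-cell runs 0.00205%, 0.0225% and 0.00439%. Blastocyst runs had 0.0385%, 0.0271% and 0.0287%, from 16, 10 and 27 counts. All blastocyst runs lay above all 8 other runs. The runs of the blastocyst were also the most alike, the highest 1.42 times the lowest, while those of the oocyte differed 8.18-fold and those of the 8-cell embryo 10.9-fold. The blastocyst mean of 0.0314% was 6.93 times that of the oocyte (0.00454%), 4.64 times that of the 2-cell (0.00678%) and 3.26 times that of the 8-cell embryo (0.00964%). Against transposon counts the ratios were 3.70, 5.22 and 3.52, and the rise was called each time (backgrounds for rises on this scale 23.4%, 12.8% and 10.6%). The 3 lower stages overlapped, and the ratio of 2-cell to oocyte was 1.49 as a share but 0.708 against transposon counts, and 4.87 as a share without oocyte run 1.1, where it passed the rule.

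Counting error limits the snRNA row. The closest runs were 8-cell run 1.2, with 18 counts and an interval of 0.0133% to 0.0355%, and blastocyst run 1.2, with 10 counts and 0.0130% to 0.0498%, so that their intervals overlap widely. Without 8-cell run 1.2 the rise from 8-cell to blastocyst was 9.76-fold, and without oocyte run 1.1 that from the oocyte was 22.6-fold. Oocyte runs 1.1 and 2 and blastocyst run 1.2 were taken as 1 sequencing run by their read names, and there the blastocyst share was 4.46 times the mean of the oocyte runs. In a second such set, 8-cell run 1.2 was 15.4 times oocyte run 1.2 in snRNA share, with 18 and 28 counts, although the stages overlap over all runs. Among the other rows, the one named RNA, whose content is not stated, was also highest in the blastocyst by its mean, 0.04998% against 0.0159% to 0.0187% at the other stages, but its blastocyst runs ranged from 0.0202% to 0.106% and overlapped with those of the oocyte and the 8-cell embryo.

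The scRNA row held 3967, 6793 and 803 counts in oocyte runs 1.1, 1.2 and 2, or 0.705%, 0.354% and 0.213%. The 2-cell runs had 0.0362% and 0.0191% (84 and 47 counts), and the 8-cell runs 0.0329%, 0.0562% and 0.0294%. Blastocyst runs had 0.166%, 0.114% and 0.0458%, from 69, 42 and 43 counts. All oocyte runs lay above all runs of the other stages. The lowest oocyte run had an interval of 0.198% to 0.228% and the highest 2-cell run one of 0.0289% to 0.0448%, so that these did not touch. The highest blastocyst run reached up to 0.210% and so touched the lowest oocyte run.

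The fall of scRNA from oocyte to 2-cell was 15.3-fold as a share, from 0.424% to 0.0277%, and 28.1-fold against transposon counts, a scale on which 10.6% of all rows fell. Without oocyte run 1.1 it was 10.2-fold. The share was 10.7-fold lower in the 8-cell embryo and 3.90-fold lower in the blastocyst than in the oocyte. From the 2-cell embryo to the blastocyst it rose 3.92-fold, to 0.109%, with no overlap of runs. The 8-cell mean of 0.0395% lay between them and its runs overlapped with those of both. Within the runs taken as 1 sequencing run by their read names, the blastocyst was 4.03-fold lower than the oocyte mean. In the other such set 8-cell run 1.2 was 6.30-fold lower than oocyte run 1.2. Without oocyte run 1.1 the fall from oocyte to blastocyst was 2.61-fold. The blastocyst mean was 2.75 times the 8-cell mean with overlapping runs, and the rule was passed without 8-cell run 1.2 (3.49-fold) or blastocyst run 2 (3.54-fold). From 2-cell to 8-cell the ratio was 1.43, and 2.06 without 2-cell run 1, where the runs no longer overlapped.

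The srpRNA row had 472, 199 and 28 counts in oocyte runs 1.1, 1.2 and 2. The 2-cell embryo had 25 and 41, the 8-cell embryo 0, 12 and 39, and the blastocyst 4, 4 and 5. Its shares were 0.0838%, 0.0104% and 0.00741% in the oocyte and 0.0108% and 0.0167% in the 2-cell embryo. The 0 of 48685 counts in 8-cell run 1.1 allows a share of up to 0.00616% taken as 3 counts, or 0.00758% by the exact interval, the other 8-cell runs had 0.0150% and 0.00311%, and blastocyst runs had 0.00963%, 0.0108% and 0.00532%. One run, oocyte 1.1, stood above all others. The other oocyte runs lay below both 2-cell runs, and the 8-cell and blastocyst runs overlapped with those of the oocyte. With it the 2-cell mean was 2.47-fold below the oocyte mean, and without it 1.54 times above, so no direction can be given for this step. Leaving out 8-cell run 1.2 also let the rule be passed, with a ratio of 0.113 from 2-cell to 8-cell and 5.52 from 8-cell to blastocyst, and so did leaving out 2-cell run 1 (0.361 from 2-cell to 8-cell) or averaging runs 1.1 and 1.2 first (0.386). The order of the means was oocyte (0.0339%), 2-cell (0.0137%), blastocyst (0.00860%) and 8-cell (0.00603%), with no neighbours separated.

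**Figure D3:**
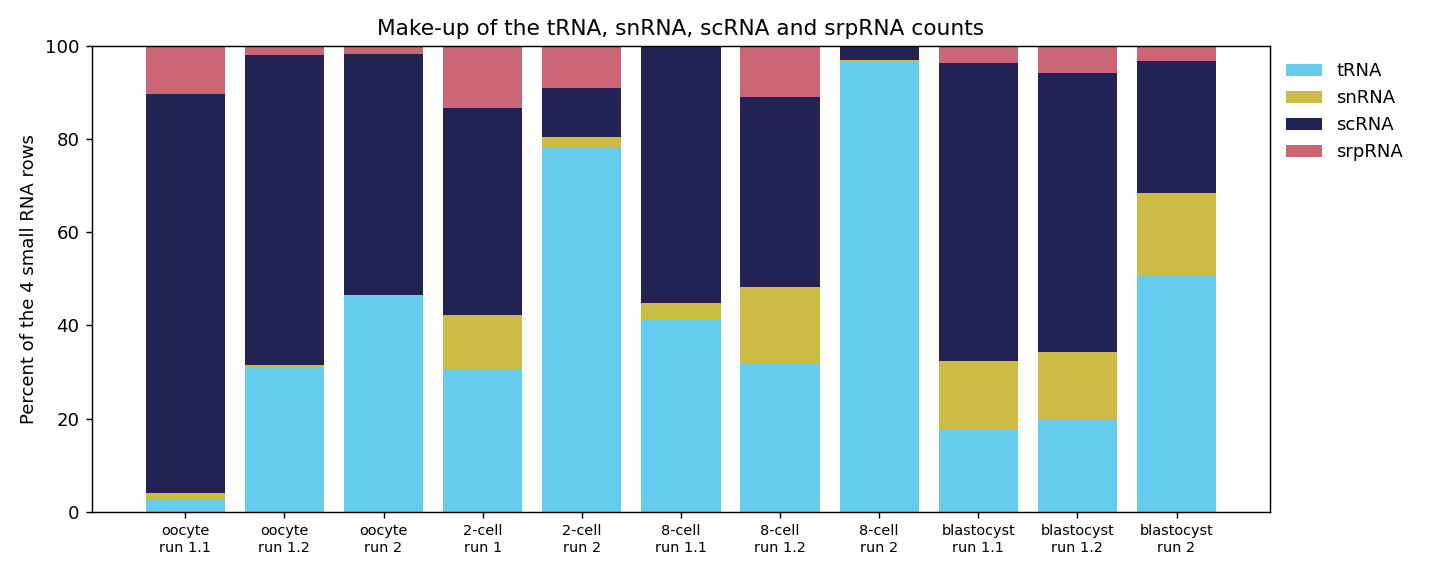
Percent of the summed tRNA, snRNA, scRNA and srpRNA counts that each row took, in each of the 11 runs. scRNA takes the largest part in all runs but 2-cell run 2, 8-cell run 2 and blastocyst run 2, where tRNA does (96.7% in 8-cell run 2), and snRNA takes 14.3% to 17.8% at the blastocyst stage but no more than 1.32% in any oocyte run.

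The make-up of the structural RNA counts leaves out the rest of the table, and the stages were less clearly separated in it. The rRNA row was 93.1% to 98.98% of the 5-row sum in every run. Among the 4 small RNA rows, oocyte runs 1.1, 1.2 and 2 had 85.8%, 66.6% and 51.6% of scRNA and 2.62%, 31.2% and 46.3% of tRNA. In 2-cell run 2 and 8-cell run 2, taken as 1 sequencing run by their read names, tRNA took 78.2% and 96.7%, and scRNA 10.5% and 2.65%. In 2-cell run 1 and 8-cell runs 1.1 and 1.2 scRNA took 44.4%, 55.2% and 40.9%, and in blastocyst runs 1.1, 1.2 and 2 it took 63.9%, 60% and 28.3%, so that its oocyte runs overlapped with those of the 8-cell embryo and the blastocyst. The snRNA part was 14.8%, 14.3% and 17.8% at the blastocyst stage. It ran from 0.275% to 1.32% in the oocyte and from 0.397% to 16.4% in the 8-cell embryo, and was 11.6% and 2.23% in 2-cell runs 1 and 2. Within this make-up the snRNA runs of the blastocyst therefore overlapped with those of the 8-cell embryo and lay above those of the other 2 stages.

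The median log2 ratio over the 5 rows was -1.30 from oocyte to 2-cell, beside 0.74 over all 47 rows, and -1.19 from oocyte to blastocyst, beside 0.93. It was 0.51 from 2-cell to 8-cell, beside -0.05, and 0.51 from 8-cell to blastocyst, beside 0.29. Against transposon counts the median over all rows from oocyte to 2-cell was 0.24 in place of 0.74, and that over the 5 rows -2.31. A median of 5 rows is the value of 1 row. In the order given these were srpRNA, tRNA, snRNA and srpRNA, and rRNA against transposon counts. None of them passed the rule there, and their runs overlapped, so these medians do not show a shift of the 5 rows as a group. The sum of the 4 small RNA rows fell 4.45-fold from oocyte to 2-cell, from 0.588% to 0.132%, and was 2.89-fold lower in the blastocyst (0.204%) than in the oocyte, with no overlap of runs. Of all single rows, 8.51% and 6.38% fell in these comparisons. Most of the oocyte sum was scRNA (0.424%), and the tRNA, snRNA and srpRNA runs overlapped from oocyte to 2-cell. From oocyte to 8-cell the runs of the small RNA sum overlapped (ratio 0.739). With rRNA included the sum was 23.7%, 8.78%, 10.8% and 12.5% from oocyte to blastocyst, and its runs overlapped in every pair of stages.

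Several SINE families descend from these RNAs: B1, counted in the row named Alu, from 7SL RNA, and B2 and ID from tRNAs or related RNAs. The Alu row took 2.31% of counts in the oocyte, 4.07% in the 2-cell, 4.04% in the 8-cell embryo and 4.43% in the blastocyst. All its oocyte runs lay below those of the other stages, but under the 2-fold limit. Against transposon counts they overlapped with those of the 2-cell (ratio 1.22) and 8-cell embryo (1.43), but not of the blastocyst (1.48). The srpRNA row had its highest mean in the oocyte, through run 1.1. B2 rose 2.23-fold from oocyte to 2-cell, to 5.73%, and B4 rose 2.52-fold, to 6.56%, while the tRNA means were 0.126% and 0.0840% with overlapping runs. Against transposon counts the ratios were 1.499 for B2 and 1.69 for B4, and neither passed the rule. ID took 0.448%, 0.663%, 0.959% and 0.434% from oocyte to blastocyst and fell 2.21-fold from the 8-cell embryo to the blastocyst, the stages where the tRNA mean was highest and lowest too. Against transposon counts the ID runs of these stages overlapped (ratio 0.415). MIR, an old SINE family, stayed between 1.06% and 1.57% in its stage means. Whether any of these differs from its parent row was not tested.

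The rows most like each structural RNA row over the 11 runs were found by Pearson's r of log2 counts per transposon count, among 39 other rows with at least 100 counts. All share the same libraries and denominator, so r is a description only. The rRNA row was most like Low_complexity (r = 0.793) and Simple_repeat (0.785), and scRNA most like the same rows (0.809 and 0.801). The snRNA row was most like L1 (0.767) and L2 (0.719), both LINE families. The tRNA row was most like ID (0.609) and Alu (0.596), and srpRNA most like rRNA (0.739) and scRNA (0.672). Without oocyte run 1.1 the closest rows became Alu for rRNA (0.745), rRNA for tRNA (0.744), hAT for scRNA (0.796) and RNA for srpRNA (0.577), and only for snRNA did the closest row remain the same, L1 (0.797). With Spearman's rank correlation they became Low_complexity for tRNA (0.673), Satellite for scRNA (0.700) and RNA for srpRNA (0.700). There they stayed Low_complexity for rRNA (0.791) and L1 for snRNA (0.809). With pseudocounts of 1 and 0.1 each closest row stayed the same.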

How the data were processed

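The authors deposited a table with the read counts of 47 repeat families, whose 11 columns are runs by their headers. They also deposited read files that list placements of 25-base reads with a score, whose scale is not stated. The submitters' processing notes name mm9 as build and CASAVA as tool. Aligner, repeat annotation and how often a read with several placements was counted: not given in the sources used here. If reads were counted more than once, the intervals are too narrow.

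Counts were divided by the run total (share) or by the summed transposon rows, and stages were compared by means of runs with equal weight, with Python 3.11.15. The 5 rows are all named. Also named are SINE relatives, a row called RNA and, for each structural RNA row, the 2 rows with the highest r (pseudocount 0.5). Members and lists were chosen with earlier results of these data known. The rule was tried on simulated counts that held counting error only. That trial cannot show how often differences between runs alone pass the rule. Alternatives were transposon counts, totals without rRNA, median-of-ratios size factors, pooled counts, runs 1.1 and 1.2 averaged first, fold limits of 1.5 and 3, overlap allowed, at least 100 counts, and each run left out. For r they were pseudocounts of 1 and 0.1, Spearman's rank correlation and oocyte run 1.1 left out. The sets taken as 1 sequencing run by their read names, the crossed oocyte columns and the chrM stretches were added after seeing the data. Read files were compared with the table by run only, since they name no repeat. Example sequences of the other 3 rows are not reported here.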

Additional observations from a re-analysis of the deposited data

How the results depend on the processing

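All 4 calls of scRNA and snRNA in the 4 comparisons held under each of the 15 or 17 alternatives run for them. Some of these alternatives could not end a call. The lower fold limit and allowed overlap only loosened the rule, and the minimum count left each ratio as it was. Leaving a run out cannot make separated runs overlap, so there only a change of the ratio could end a call. The scRNA fall ranged from 10.2-fold to 31.5-fold (oocyte to 2-cell) and from 2.61-fold to 7.88-fold (oocyte to blastocyst), and the snRNA rise from 2.34-fold to 9.76-fold (8-cell to blastocyst) and from 3.00-fold to 22.6-fold (oocyte to blastocyst). Of 305 values of single rows, 257 kept direction and side of the rule, 27 kept direction and passed it anew, 21 reversed direction and none lost a call. Only the 4 calls could be lost. The 305 include the fold limits, allowed overlap and minimum count, where the ratio was the main one and could not reverse. The cause of the reversals was not tested.

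The number of rows called from oocyte to 2-cell (1) was 3 with overlap allowed and 1 to 3 with a run left out. From 2-cell to 8-cell (0) it was 1 with runs 1.1 and 1.2 averaged first, 2 with overlap allowed and 0 to 2 with a run left out. It was 3 in the set taken as 1 sequencing run by read names. That set has 1 run per stage, so its runs cannot overlap and any 2-fold difference counts. From 8-cell to blastocyst (1) it was 2 averaged first, 3 with overlap allowed and 1 to 3 with a run left out. From oocyte to blastocyst (2) it was 3 averaged first, 2 so with oocyte columns 1.1 and 2 crossed, 4 with overlap allowed and 2 to 3 with a run left out.

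In the setting without rRNA, rRNA was left out of both the 5-row sum and the total. That ratio is thus of the summed tRNA, snRNA, scRNA and srpRNA rows. From oocyte to 2-cell the ratio of the 5-row sum (0.371) passed the rule with overlap allowed. It was 0.172 without rRNA, where it also passed. With a run left out it was 0.195 to 0.697, passing without oocyte run 2 (0.291) or 2-cell run 2 (0.195). From 2-cell to 8-cell (1.23) it was 3.87 without rRNA, 2.84 pooled and 2.11 with size factors. It was 2.13, which passed, in runs taken as 1 sequencing run by their read names. With a run left out it was 0.274 to 2.35, and the fall without 8-cell run 2 (0.274) passed. From 8-cell to blastocyst (1.16) it was 0.967 against transposons, 0.407 without rRNA, 0.668 with size factors, 0.459 pooled and 0.794 averaged first. With a run left out it was 0.792 to 5.20, and the rise without 8-cell run 2 (5.20) passed. From oocyte to blastocyst (0.528) it was 0.271 without rRNA, where it passed. With a run left out it was 0.401 to 0.992, and the fall without blastocyst run 1.2 (0.401) passed.

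The snRNA ratio from oocyte to 2-cell (1.49) was 0.708 against transposons, 0.958 without rRNA and 0.619 with size factors, and from 2-cell to 8-cell (1.42) 0.800 pooled. The rRNA ratio from 8-cell to blastocyst (1.18) was 0.992 against transposons, 0.685 with size factors, 0.471 pooled and 0.813 averaged first. With a run left out, ratios from oocyte to 2-cell ran from 0.198 to 1.13 for tRNA, 0.897 to 4.87 for snRNA and 0.292 to 1.54 for srpRNA. From 2-cell to 8-cell they ran from 0.267 to 2.29 for rRNA, 0.407 to 15.2 for tRNA and 0.476 to 2.37 for snRNA. From 8-cell to blastocyst they ran from 0.811 to 5.33 for rRNA, 0.0991 to 1.61 for tRNA and 0.950 to 5.52 for srpRNA, and from oocyte to blastocyst from 0.402 to 1.01 for rRNA.

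Depth limits the snRNA and srpRNA rows most: a count of 3 is 0.00813% of the shallowest run.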
